A study of Mus musculus with 6 samples.

Results

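Cells carry a small set of proteins that recognise double-stranded RNA, some of which pass the signal on through a pair of adaptors. The genes of these proteins and adaptors were followed at the transcript level in CT26 cells exposed to irinotecan. The genes were chosen by name: Ddx58 (the name in the deposited table for the gene now called Rigi), Ifih1, Dhx58, Tlr3, Eif2ak2, Adar, Mavs and Ticam1. The 9 names chosen stand for 8 genes, and all 8 were found among the 11604 genes of the table and passed the filter on low counts. CT26 is a transplantable colon carcinoma line of the BALB/c mouse, labelled here as wild type, and irinotecan (CPT-11) is a prodrug of the topoisomerase I inhibitor SN-38. RNA was sequenced from 3 libraries of cells given 10 µM irinotecan for 24 h and from 3 libraries of cells given DMSO, the solvent. The labels give no time for the DMSO libraries. The series design speaks of duplicates, but the labels hold 3 libraries per group. Whether they came from separate cultures is not said, so every p-value rests on library-to-library spread that may be technical. The libraries held 16052326 to 17294496 counts.

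RIG-I (Ddx58), MDA5 (Ifih1) and LGP2 (Dhx58) are related cytosolic helicases, the RIG-I-like receptors. RIG-I favours short double-stranded RNA with a triphosphate end and MDA5 favours long duplexes, and both signal through MAVS on the outer membrane of mitochondria; LGP2 lacks the signalling domains and modulates the other receptors. TLR3 (Tlr3) reads double-stranded RNA inside endosomes and signals through TRIF (Ticam1). PKR (Eif2ak2) binds double-stranded RNA in the cytosol and slows translation by phosphorylating the initiation factor eIF2, and ADAR1 (Adar) edits adenosine to inosine in such duplexes, which keeps cellular RNA from being read as foreign. Both adaptor pathways end in type I interferon, and interferon in turn raises the sensor genes through the factor ISGF3, which binds the interferon-stimulated response element (ISRE).

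The start regions of the genes were searched for that element and are shown because most of the sensors moved together. RefSeq windows of 300 bases, from 250 before to 50 after an annotated start (GRCm38.p6, an older build than the GRCm39 of the counts), were at hand for 7 of the 8 genes, in 9 windows; Dhx58 was not among them. The ISRE core (GAAA, any 2 bases, then GAAA), searched on both strands, was present in 3 of the 7 genes, Ddx58, Ifih1 and Eif2ak2, against 3.99% of all 27025 genes with a window. The shorter motif GAAANNGAA, which lies within the first, was present in those 3 genes and in Adar (1 of its 3 windows), against 9.76% of all genes. The matches nearest the start are shown with the motif in capitals (the core for the first 3 genes, the shorter one for Adar), 5′ to 3′ on the strand of the gene.
Ifih1, chromosome 2, 62646206 to 62646235, minus strand: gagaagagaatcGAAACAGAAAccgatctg
Ddx58, chromosome 4, 40239804 to 40239833, minus strand, motif on the opposite strand of the gene: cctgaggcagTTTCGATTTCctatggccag
Eif2ak2, chromosome 17, 78882535 to 78882564, minus strand: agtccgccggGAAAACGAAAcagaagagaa
Adar, chromosome 3, 89730738 to 89730767, plus strand: ttttcaaggaaacGAAAGTGAActctgggg
The capitals begin at base 33 after the start in Ifih1, 3 in Ddx58, 19 in Eif2ak2 and 34 in Adar, where base 1 is the first of the transcript. Eif2ak2 and Adar also held the STAT motif TTCNNNGAA, present in 9.55% of all genes. No window of Tlr3, Mavs or Ticam1 held any of the 3 motifs. These are letter matches within 300 bases; no binding was measured.

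With irinotecan, the transcripts of the sensors and of Adar were higher and those of the adaptors did not pass the test. Of the 8 genes, 6 rose, 0 fell and 2 did not pass at an adjusted p under 0.05 (edgeR quasi-likelihood test, Benjamini-Hochberg adjustment over all 11599 genes tested), where 22.1% of all genes were called, 11.8% higher and 10.3% lower. None of the 8 was lower at an unadjusted p under 0.05 either (0 genes), and DESeq2 and limma-voom also called 6 higher and 0 lower. The median log2 fold change was 0.62 over the 8 genes and 0.00 over all genes tested. In the same 6 genes the 3 irinotecan libraries lay above all 3 DMSO libraries, which was so for 19.3% of all genes, and in 0 they lay below all 3, against 17.8% of all genes. The genes had been chosen with this response already known, so the counts describe them and give no independent evidence.

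**Figure D1:**
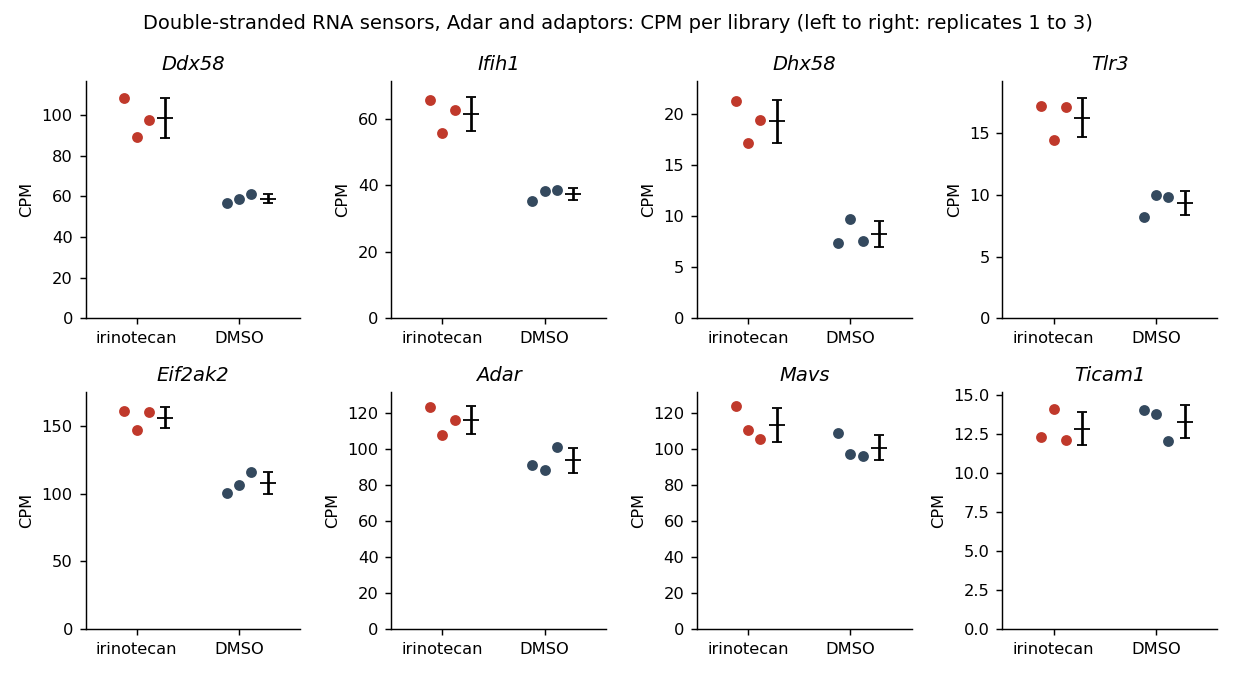
CPM (counts scaled to the TMM-normalized library size) of each gene, with 1 point per library, irinotecan left and DMSO right, replicates 1 to 3 from left to right, and the mean ± SD (n = 3) as a black bar; every axis starts at 0. The red and blue points are apart in 6 panels and overlap in those of Mavs and Ticam1.

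Among the RIG-I-like receptors, Ddx58 (ENSMUSG00000040296, GRCm39 chromosome 4, 40203773 to 40239828, minus strand) stood at 108.7, 89.3 and 97.7 CPM (counts scaled to library size) in the irinotecan libraries, against 56.8, 58.6 and 61.3 CPM in the DMSO libraries. The lowest irinotecan value was well above the highest DMSO value. The rise was 1.67-fold (log2 fold change 0.74 ± 0.068, SE; adjusted p = 7.7e-08). Ifih1 (chromosome 2, 62426142 to 62476599, minus strand) had 65.5, 55.7 and 62.6 CPM with irinotecan and 35.4, 38.2 and 38.6 CPM with DMSO, again with no overlap. Its rise of 1.64-fold (0.71 ± 0.073, adjusted p = 3.6e-07) was close in size to that of Ddx58. The ratio of Ddx58 to Ifih1, taken per gene length from the authors' FPKM values, was 1.86 ± 0.058 with irinotecan and 1.83 ± 0.044 with DMSO (SD, n = 3 each), and the ranges overlapped.

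Dhx58 (chromosome 11, 100585710 to 100595097, minus strand) rose most of the 8 genes. It had 21.3, 17.1 and 19.4 CPM in irinotecan libraries, against 7.41, 9.70 and 7.6 CPM in DMSO libraries. Behind these values lie 295 to 371 counts per irinotecan library and 118 to 158 per DMSO library. The fold change was 2.34 (log2 1.23 ± 0.12, SE; adjusted p = 2.6e-07), which was place 63 of 11599 genes ordered by log2 fold change, where Ddx58 took place 288 and Ifih1 place 315. Its 95% interval, 0.97 to 1.48 on the log2 scale, lay above those of Ddx58 (0.60 to 0.88) and Ifih1 (0.56 to 0.86). Per gene length, Dhx58 stood at 0.422 ± 0.0079 of Ddx58 with irinotecan and 0.302 ± 0.048 with DMSO, without overlap. An antisense gene, Dhx58os, shares exon sequence with Dhx58 in GENCODE M21. Whether its reads were kept apart from those of Dhx58 is not known, since library strandedness is not given in the sources used here. The same holds for Gm45542 beside Tlr3, Gm26637 and n-R5s29 beside Eif2ak2, and Chrnb2 beside Adar.

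Tlr3, the endosomal receptor (chromosome 8, 45848702 to 45864117, minus strand), had 17.2, 14.5 and 17.2 CPM with irinotecan and 8.23, 10.0 and 9.85 CPM with DMSO. The groups did not overlap, although the gene is the lowest of the 8 per gene length and rests on 131 to 163 counts per DMSO library. Its log2 fold change was 0.80 with a 95% interval of 0.55 to 1.04, which covers the values of Ddx58 and Ifih1 and overlaps the interval of Dhx58.

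Eif2ak2, which encodes PKR (chromosome 17, 79159993 to 79190002, minus strand), had 161.4, 147.7 and 160.4 CPM in irinotecan libraries, against 100.8, 106.6 and 116.5 CPM in DMSO libraries. That is a rise of 1.45-fold (log2 0.53 ± 0.058, SE; adjusted p = 8.4e-07), with every irinotecan library above every DMSO library. Adar (chromosome 3, 89622329 to 89660753, plus strand) had 123.7, 108.1 and 116.4 CPM with irinotecan and 91.4, 88.6 and 101.3 CPM with DMSO. This was the smallest of the 6 rises, 1.24-fold (0.31 ± 0.062, adjusted p = 0.0012), and the groups stood apart by a narrow gap. Per gene length, the ratio of Adar to Eif2ak2 was 0.467 ± 0.014 with irinotecan and 0.547 ± 0.024 with DMSO (SD, n = 3 each), without overlap. Counts per gene do not separate the interferon-inducible long form of ADAR1 from the constitutive short form, so the Adar value is a sum over both.

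Neither adaptor passed the test. Mavs (chromosome 2, 131075983 to 131089945, plus strand) stood at 123.9, 110.7 and 105.4 CPM in irinotecan libraries, against 108.7, 97.2 and 96.1 CPM in DMSO libraries. The lowest irinotecan library lay under the highest DMSO library. The log2 fold change was 0.17 (95% interval 0.04 to 0.30, adjusted p = 0.059), and the upper end of the interval lay just under the 0.31 of Adar. The result sat close to the threshold. It passed without irinotecan replicate 3 (0.22, adjusted p = 0.024), without DMSO replicate 1 (0.23, adjusted p = 0.025), when libraries were scaled by total counts alone (0.20, adjusted p = 0.028) and with genes under a mean of 5 CPM left out (0.18, adjusted p = 0.049), and it was 0.10 (adjusted p = 0.35) without irinotecan replicate 1. It also passed with the replicate number as a block (0.17, adjusted p = 0.0032). Over 14 alternatives its adjusted p ran between 0.0032 and 0.35. Ticam1 (chromosome 17, 56576319 to 56583786, minus strand), the adaptor of TLR3, had 12.3, 14.1 and 12.1 CPM with irinotecan and 14.0, 13.8 and 12.04 CPM with DMSO. The ranges overlapped almost fully, with a log2 fold change of -0.05 (95% interval -0.28 to 0.18, adjusted p = 0.80). That interval lies under the values of all 6 genes that rose.

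**Figure D2:**
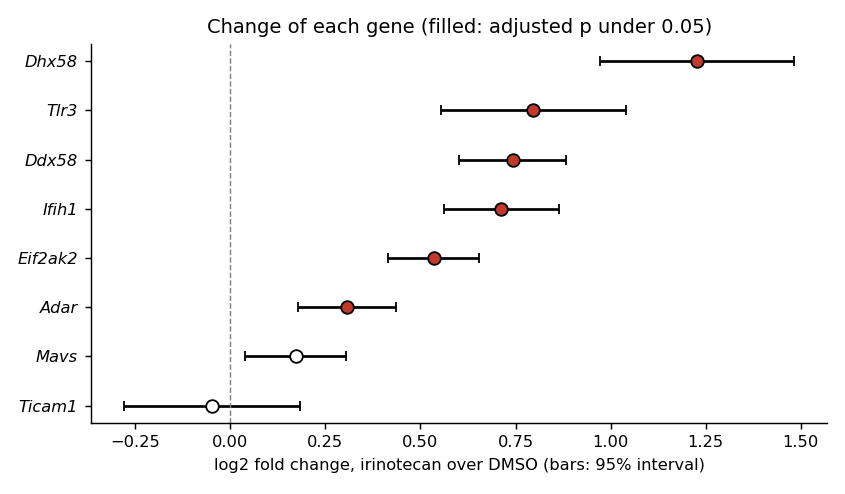
Log2 fold change of irinotecan over DMSO for each gene, with 95% intervals from the edgeR fit; filled points have an adjusted p under 0.05. Values run from 1.23 for Dhx58 to -0.05 for Ticam1, and the 2 open points are the adaptors.

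The RIG-I-like receptors were therefore compared with Mavs, and Tlr3 with Ticam1, within a library. Dhx58 was included although LGP2 lacks the signalling domains. Per gene length, Ddx58 stood at 0.416, 0.383 and 0.440 of Mavs in irinotecan libraries, against 0.248, 0.286 and 0.303 in DMSO libraries. Ifih1 stood at 0.222 ± 0.019 of Mavs with irinotecan and 0.153 ± 0.017 with DMSO, and Dhx58 at 0.174 ± 0.015 with irinotecan and 0.084 ± 0.016 with DMSO (SD, n = 3 each). The ratio of Tlr3 to Ticam1 was 0.803, 0.591 and 0.813 with irinotecan and 0.338, 0.418 and 0.470 with DMSO. In all 4 pairs the irinotecan libraries lay above the DMSO libraries. The sensors of these pairs had risen and the adaptors had not passed, so the ratios largely restate those results and are no further test. Mavs remained the more abundant gene of each of its pairs in every library, and Tlr3 stayed below Ticam1 in every library. The ratio of the adaptors to each other, Mavs to Ticam1, overlapped between groups (7.95 ± 0.99 with irinotecan and 6.80 ± 0.42 with DMSO).

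On the FPKM scale, which allows genes to be compared per length, Mavs was the highest of the 8 genes in both groups, at 34.2 ± 2.86 with irinotecan and 29.7 ± 2.13 with DMSO (SD, n = 3 each). Eif2ak2 followed at 30.9 ± 1.52 with irinotecan and 20.9 ± 1.65 with DMSO, and its range met that of Mavs in the irinotecan libraries but not in the DMSO libraries. Adar (14.4 ± 0.97) and Ddx58 (14.1 ± 1.40) overlapped with irinotecan, while with DMSO Adar (11.4 ± 0.92) stood above Ddx58 (8.26 ± 0.36). Ifih1 came next in both groups, at 7.57 ± 0.63 with irinotecan and 4.53 ± 0.22 with DMSO. The order below it differed between the groups. With irinotecan, Dhx58 (5.95 ± 0.65) stood above Ticam1 (4.33 ± 0.36), whereas with DMSO Ticam1 (4.38 ± 0.33) overlapped Ifih1 and stood above Dhx58 (2.49 ± 0.36). Tlr3 was last in both, at 3.15 ± 0.30 with irinotecan and 1.78 ± 0.18 with DMSO.

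**Figure D3:**
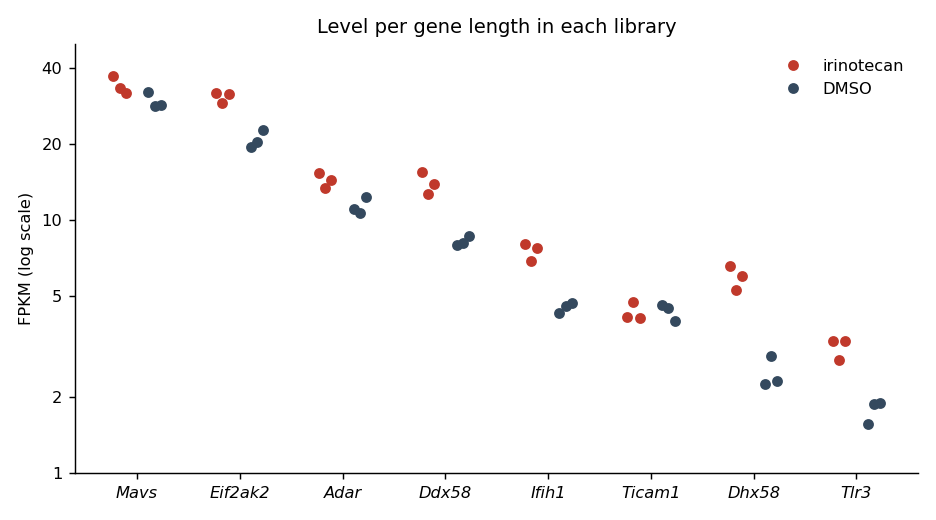
FPKM of each gene on a log axis, with 1 point per library, irinotecan left and DMSO right, and genes ordered by their DMSO mean. Dhx58 lies below Ticam1 in the DMSO libraries (means 2.49 and 4.38) and above it in the irinotecan libraries (5.95 and 4.33).

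The 6 genes that rose kept the same order of libraries within the irinotecan group. Replicate 1 was the highest in 6 of 6 and replicate 2 the lowest in 6 of 6. Replicates 1 and 3 were nearly equal for Tlr3 (299 and 300 counts) and Eif2ak2 (2808 and 2805 counts), so their order there carries little weight. Over all 1369 genes called higher, replicate 1 was highest in 56.9% and replicate 2 lowest in 44.5%. The DMSO libraries also shared much of an order. DMSO replicate 1 was lowest in 5 of the 6 genes, against 24.4% of the 1369. DMSO replicate 3 was highest in 4 of the 6, against 34.5%. On the log2 scale, Dhx58 lay 1.37, 1.06 and 1.24 above its DMSO mean in irinotecan replicates 1 to 3, and Ddx58 lay 0.88, 0.60 and 0.73 above it. Adar lay 0.40, 0.21 and 0.31 above its DMSO mean. The DMSO libraries stayed between -0.18 (Tlr3) and 0.24 (Dhx58) for the same 6 genes. All 6 rises also passed with any 1 library left out, including irinotecan replicate 1, where Adar was 0.26 (adjusted p = 0.018, its highest over 14 alternatives) and Ddx58 0.67 on the log2 scale.

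**Figure D4:**
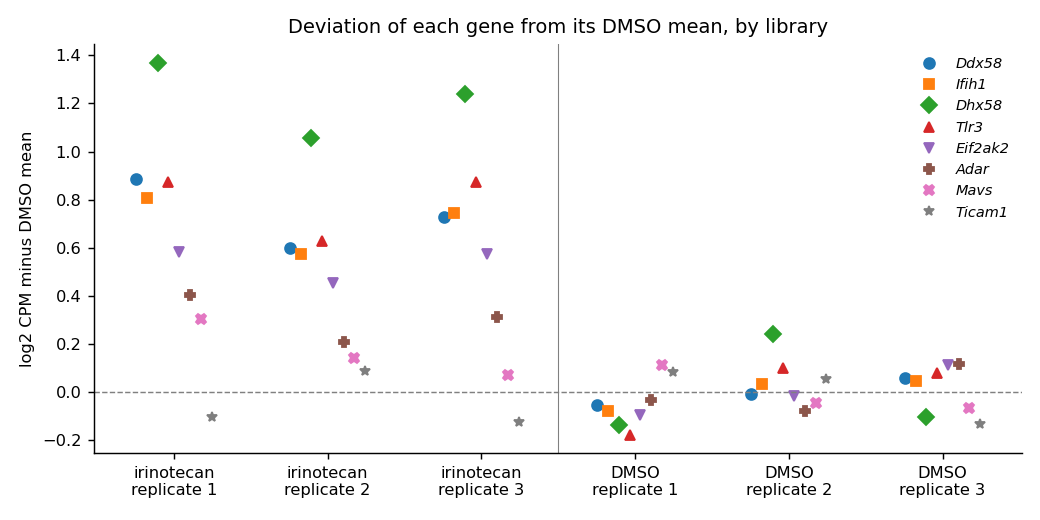
Log2 CPM of each gene minus its DMSO mean, by library, with irinotecan replicates on the left and DMSO replicates on the right. The 6 genes that rose sit between 0.21 and 1.37 in the irinotecan libraries, all lower in replicate 2 than in replicates 1 and 3.

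The genes whose log2 CPM ran most like each sensor over the 6 libraries were mixed. Some were interferon-induced, such as Stat2 and Oas1a, and others, such as Lasp1 and Rbms2, were not chosen for any link to interferon. The share of interferon-induced genes among them was not tested. Trim30a was nearest to both Ddx58 (Pearson r = 0.9982) and Ifih1 (r = 0.9996), followed by Stat2 and Lasp1 for Ddx58 and by Pml and Sh3d19 for Ifih1. For Dhx58 the nearest were Rtp4 (r = 0.9965), Oas1a and Fam234a, and for Tlr3 they were Ifi44 (r = 0.9978), Eps8l2 and Mnt. Eif2ak2 ran closest to Rbms2 (r = 0.9986), Herc6 and Cyp26b1. Adar ran closest to Nrp1 (r = 0.9966), Prkci and Prkcd, the last of which did not pass the test itself (log2 fold change 0.14, adjusted p = 0.11). With 6 libraries in 2 groups such values are common: between 183 genes (Adar) and 412 genes (Ddx58) reached r of at least 0.95. They are descriptions, since the points share the same 2 groups.

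The counts that follow, for the neighbouring parts of the pathway, stand beside 22.1% of all genes called, 11.8% higher and 10.3% lower. Of 14 interferon and interferon receptor signalling genes measured, of 19 looked for, 7 rose while 0 were lower, at a median log2 fold change of 0.21. The number lower was also 0 at an unadjusted p under 0.05, with DESeq2 and with limma-voom. Usp18, an ISG15-removing protease that also dampens signalling at the interferon receptor, had 66.9 ± 5.87 CPM with irinotecan and 28.6 ± 1.46 CPM with DMSO (SD, n = 3 each). The receptor subunit genes Ifnar1 and Ifnar2 had log2 fold changes of -0.07 and -0.14 (adjusted p = 0.49 and 0.33). Ifnb1, Ifna4, Ifnl2, Ifnl3 and Ifnlr1 have no row in the table analysed here, whose least covered gene has 58 counts over the 6 libraries.

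Other RNA sensors and RNA-binding effectors fell into a group that rose and a group that did not. Of 20 measured, of 25 looked for, 13 rose and 2 fell, and the median was 0.68. Most of those that rose belong to the OAS and IFIT families, and Zbp1, a sensor of Z-form RNA, was also among them (named after its value was seen). Oasl2 rose by 1.13 ± 0.069 and Oas2, a synthetase of oligoadenylate, by 1.08 ± 0.083 (SE), close to Dhx58. The helicases among them went otherwise: Ddx21, a nucleolar helicase, fell by 0.32 ± 0.049, and Dhx33 fell by 0.20 (adjusted p = 0.041). The Dhx33 call did not hold in DESeq2 (adjusted p = 0.053), under scaling by total counts alone, on the FPKM scale, or when irinotecan replicate 1 or 2 or DMSO replicate 2 or 3 was left out, and over 14 alternatives its adjusted p ran between 0.0036 and 0.22. Ddx1, Dhx9, Dhx15 and Dhx36, helicases also described as RNA sensors, had log2 fold changes of 0.02, -0.04, -0.10 and -0.13 and did not pass. Members of the Oas1 and Ifit3 families are near-identical and can share reads.

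Among the other DDX and DHX helicases, the wider family of the RIG-I-like receptors, 2 of 47 rose and 13 fell, with a median of -0.10. The 47 include Ddx1, Ddx21, Dhx9, Dhx15, Dhx33 and Dhx36 from the preceding set, so the falls of Ddx21 and Dhx33 are counted in both. The number lower was 5 without irinotecan replicate 1 and 7 without DMSO replicate 2. Ddx60, an interferon-induced helicase, had 24.2 ± 4.04 CPM with irinotecan and 11.2 ± 0.26 CPM with DMSO (SD, n = 3 each; adjusted p = 3.6e-07). Dhx32 rose by 0.30 ± 0.060 (SE). Ddx51, a helicase of ribosome assembly, fell by 0.38 ± 0.070. The log2 fold changes of the other 44 ran from -0.44 to 0.18, under the 0.71 of Ifih1, the smallest rise among the 3 RIG-I-like receptors.

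Regulators of the RIG-I-like receptors gave 5 higher (20%) and 3 lower (12%) of 25 measured, of 28 looked for, where 11.8% of all genes were higher and 10.3% lower, with a median of 0.00; the counts were 3 and 1 without irinotecan replicate 1. Beside Ddx60, Trim25, a ubiquitin ligase of the RIG-I pathway, rose by 0.52 ± 0.060 (SE; 192.7 ± 16.9 CPM with irinotecan and 134.4 ± 7.16 CPM with DMSO, SD, n = 3 each). Named after their values were seen, the other 3 that rose were Trim14 (0.83), a MAVS-associated protein, Rnf135 (0.43), the ligase Riplet that modifies RIG-I, and Tkfc (0.34), which is described as an inhibitor of MDA5. Trim14 kept its call in all 14 alternatives, Rnf135 lost it in 5 (4 of them leave out irinotecan replicate 1 or 2 or DMSO replicate 1 or 2, and the other is DESeq2) and Tkfc in 2 (without irinotecan replicate 1 or DMSO replicate 3). Tomm70a, a mitochondrial import receptor that binds MAVS, fell by 0.19 ± 0.046. Arl5b, a small GTPase, fell by 0.27 (adjusted p = 0.018), and the call did not hold when irinotecan replicate 1 or DMSO replicate 3 was left out or on the FPKM scale (adjusted p between 0.0014 and 0.12 over 14 alternatives). Ywhae, the last of the 3 and named after its value was seen, fell by 0.13 (adjusted p = 0.038). Its call was lost in 7 of 14 alternatives, under scaling by total counts alone, on the FPKM scale and without any 1 of irinotecan replicates 1 to 3 or DMSO replicates 1 and 2 (adjusted p between 0.0017 and 0.13 over the 14).

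Below the adaptors, 4 of 25 genes of signalling under MAVS and TRIF were called (16%, against 22.1% of all genes). Of these, 2 rose and 2 fell, and the median of the 25 was -0.02; scaled by total counts alone, 4 rose and 0 fell, and without irinotecan replicate 2, 2 rose and 0 fell. Irf7, the interferon-inducible factor that drives interferon genes, rose to 97.8 ± 13.3 CPM with irinotecan, against 37.0 ± 1.51 CPM with DMSO (SD, n = 3 each; adjusted p = 7.8e-10), while its constitutive relative Irf3 had a log2 fold change of -0.11 (adjusted p = 0.31). Tbkbp1, a partner of the kinase TBK1, rose by 0.24 ± 0.059 (SE), and Tbk1, Ikbke, Traf3 and Traf6 had log2 fold changes of -0.04, 0.19, -0.01 and -0.10 without passing. Nfkb1 and Tab2 fell by 0.15 and 0.16 (adjusted p = 0.037 and 0.039). Each of those calls was lost in 6 of 14 alternatives: under scaling by total counts alone and on the FPKM scale for both, without DMSO replicate 1 or irinotecan replicate 3 for Nfkb1, without DMSO replicate 3 or irinotecan replicate 1 for Tab2, and without irinotecan replicate 2 or DMSO replicate 2 for both, at adjusted p-values of 0.0041 to 0.17 for Nfkb1 and 0.0023 to 0.18 for Tab2.

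Among genes around PKR and eIF2, more fell than rose. Of 20 measured, 2 rose and 7 fell, with a median of -0.08. Without irinotecan replicate 1 or DMSO replicate 1, 4 fell, and without DMSO replicate 2, 3 fell. The log2 fold changes of the 20 ran from -0.92 to 0.43. The falls named below were picked by smallest p and are not the largest. Prkra, an activator of PKR, rose by 0.41 ± 0.087 (SE), and Eif2ak3, the eIF2 kinase PERK, by 0.43 ± 0.12, a call lost without irinotecan replicate 1 (adjusted p = 0.086) or DMSO replicate 1 (0.065; lowest of 14 alternatives 0.0018). The other eIF2 kinases, Eif2ak1 and Eif2ak4, had log2 fold changes of 0.18 and 0.08 and did not pass. Ddit3, the transcription factor CHOP downstream of eIF2 phosphorylation, fell by 0.42 ± 0.067, and Ppp1r15b, a subunit of the phosphatase that restores eIF2, fell by 0.26 ± 0.050. Transcript levels say nothing of the phosphorylation of PKR or eIF2, which was not measured.

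Measured genes that edit, bind, cut or silence cellular double-stranded RNA or its sources numbered 23. Of these, 3 rose (13%, against 11.8% of all genes) and 1 fell, with a median of -0.05. The 26 names looked for held Skiv2l and Ttc37 also under their newer names, Skic2 and Skic3. Of the genes looked for, only Adarb2 had no row. Without irinotecan replicate 1 or DMSO replicate 2, and on the FPKM scale, 2 rose and 0 fell. Mov10, an RNA helicase that restrains retroelements, rose by 0.76 ± 0.078 (SE), and Samhd1, a nucleotide triphosphohydrolase, by 0.51 ± 0.050. Adarb1, the second editing deaminase, rose by 0.37 (adjusted p = 0.048; named after its value was seen). The Adarb1 call was lost in 8 of 14 alternatives, with DESeq2, with limma-voom, on the FPKM scale and without any 1 of irinotecan replicates 1 and 2 or DMSO replicates 1 to 3 (adjusted p between 0.030 and 0.21 over the 14). Dicer1 and Drosha, the RNases of the microRNA pathway, had log2 fold changes of -0.11 and -0.06 and did not pass.

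**Figure D5:**
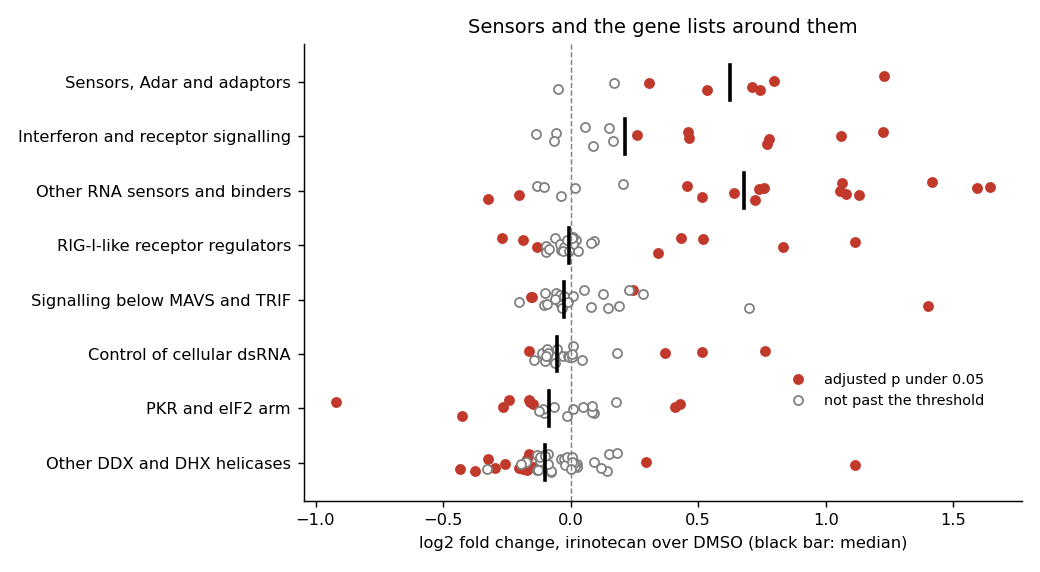
Log2 fold change of irinotecan over DMSO for each measured gene of the 8 sets, with filled points at an adjusted p under 0.05 and the median as a black bar. The medians run from 0.68 for the other RNA sensors and 0.62 for the sensors, Adar and adaptors to -0.10 for the other DDX and DHX helicases.

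The authors' deposited table gives a comparison of the same counts, whose log2 fold changes have the opposite sign to irinotecan over DMSO. Apart from the sign, its values for these genes equal those of the DESeq2 alternative (Ddx58 0.739, adjusted p = 9.13e-19 in both). They are therefore not a further test. With the sign turned, the authors' deposited table has 1.225 for Dhx58, 0.79 for Tlr3, 0.74 for Ddx58, 0.71 for Ifih1, 0.53 for Eif2ak2, 0.30 for Adar, 0.17 for Mavs and -0.05 for Ticam1, and its adjusted p-values are under 0.05 for the first 6.

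Markers of other cells and the identity of the line were looked at beside these results. Of 21 haematopoietic markers, 20 have no row, and Cd68 summed to 3.72 to 4.23 CPM in irinotecan libraries and 2.01 to 3.07 CPM in DMSO libraries (adjusted p = 0.018, a call lost without irinotecan replicate 1 or 3 or DMSO replicate 1 or 3). None of 6 endothelial markers has a row. Cd68 therefore moved in the same direction as the sensors, and its part in their rise was not tested. Of 8 markers of a carcinoma line, 5 are listed: Vim, at 2805 ± 246 CPM with irinotecan and 2266 ± 117 CPM with DMSO (SD, n = 3 each), Cdh17, Krt18, Cdh2 and Twist1, while Krt8, Epcam and Cdh1 have no row. They moved in both directions: Vim rose, Cdh17 rose by 1.40 on the log2 scale (2.40 ± 0.44 CPM with irinotecan and 0.90 ± 0.41 CPM with DMSO; adjusted p = 0.0047), and Krt18 fell by 0.23 (45.3 ± 2.63 CPM with irinotecan and 53.1 ± 3.90 CPM with DMSO; adjusted p = 0.025). The Krt18 call was lost without irinotecan replicate 1 or 3 or DMSO replicate 2. In these bulk libraries, more RNA per cell and more cells that express a gene cannot be told apart.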

How the data were processed

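Each gene of the deposited table carries, per the file headers, counts and FPKM for each of 6 libraries. Per the submitters' processing notes, the build was GRCm39 and the tools, whose roles are not given, were edgeR 3.24.3, DESeq2 1.22.1, StringTie 1.3.4d, HISAT2 2.1.0, fastp 0.19.3 and featureCounts 1.6.2. The counts deposited by the authors are whole and unnormalized; the lowest sum over 6 libraries is 58, so genes with few counts were left out before deposit. The FPKM deposited by the authors scale each count by gene length and by library total. The authors also deposited a log2 fold change, p-value and adjusted p-value per gene. Whether antisense reads were separated is not known, since strandedness is not given.

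The test of the counts was edgeR 4.0.16 (R 4.3.3), with filterByExpr keeping 11599 genes and dropping 5, TMM scaling, and a robust quasi-likelihood fit of irinotecan over DMSO (glmQLFit, glmQLFTest); p-values were adjusted by Benjamini-Hochberg over all genes, with calls under 0.05. The coefficient of variation between libraries of a group, which edgeR calls biological, came to 5.57%. It may be technical, since separate cultures are not stated. Each standard error is the log2 fold change divided by the root of F, and a prior count of 2 enters log2 CPM. The fit was also run on counts simulated from its own means and dispersions with changes added. That run cannot speak to technical libraries or to pairing. DESeq2 1.42.0 and limma 3.58.1 (voom, and log2(FPKM + 1)) were alternatives. Precision is set by depth and 3 libraries per group.

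The genes, the 10 lists around them and the motifs were chosen with earlier results of these data known. Named genes were the 8 genes, up to 2 higher and 2 lower of each list by smallest p, and the 3 nearest by correlation for each gene that passed; others are said to be named after their values were seen or are listed as not passing. Results for a few genes of the lists that the naming rule would give are not reported here.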

Additional observations from a re-analysis of the deposited data

How the results depend on the processing

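The rises of Ddx58, Ifih1, Dhx58, Tlr3, Eif2ak2 and Adar kept their direction and call in all 14 alternatives, with log2 fold changes of 0.67 to 0.81, 0.63 to 0.78, 0.997 to 1.36, 0.58 to 0.87, 0.49 to 0.59 and 0.26 to 0.37. Ticam1 stayed between -0.12 and -0.01 without a call. Mavs gained a call with total counts as the only scaling (0.20), with a mean of at least 5 CPM (0.18) and with the replicate number as a block (0.17, adjusted p = 0.0032); it ran from 0.10 to 0.23 when 1 library was left out. With 1 library left out, the number of genes called was 1393 (without irinotecan replicate 1) to 2362, against 2559. The same range was 4 to 7 for regulators of RIG-I-like receptors, 2 to 4 for signalling below the adaptors, 5 to 8 for the PKR and eIF2 arm, 2 to 5 for control of cellular double-stranded RNA and 7 to 14 for the other helicases. On the FPKM scale the numbers called were 2 for signalling below the adaptors, 2 for control of cellular double-stranded RNA and 8 for the helicases; the cause was not tested. With total counts alone, 66.1% of all calls were higher, and on the FPKM scale 67.9%, against 53.5%. Of 614 values for 44 other genes named by the rule, 39 lost their call and 0 reversed. Genes named after their values were seen are not among the 44. In that later group, Adarb1 lost its call in 8 of 14 alternatives, Ywhae in 7, Rnf135 in 5 and Tkfc in 2. Trim14 and Zbp1 lost it in 0.

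Same-numbered libraries deviated together only weakly (correlations 0.12, 0.04 and 0.08), though each of the 6 libraries correlated best with its own number. The labels do not say that they were paired, so the main test did not pair them. A pairing is not excluded, and the lack of a call for Mavs depends on this choice (adjusted p = 0.0032 in edgeR with the block). The replicate block gave 3628 genes called, 9 for control of cellular double-stranded RNA (4 higher, 5 lower) and 24 of the other helicases (3 higher, 21 lower). Depth limits Dhx58, Tlr3 and Ticam1 most, at 118 to 371 counts per library.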
